A study of Mus musculus with 34 samples.

Results

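Bone marrow-derived macrophages lacking Tet2 were compared with those lacking Dnmt3a, both without added lipoprotein. The members were chosen by label: 3 Tet2KO and 3 Dnmt3aKO libraries with vehicle, 6 of the 34 samples of the series and 6 of the 24 that form its main set. The Tet2KO cells came from mice with a floxed Tet2 gene (Tet2fl/fl;Vav-Cre) and the Dnmt3aKO cells from mice with a floxed Dnmt3a gene (Dnmt3afl/fl;Vav-Cre). The Vav-Cre transgene, which recombines floxed alleles in blood-forming cells, was carried by every genotype, the WT mice included. All mice were 10 to 14 weeks old. Whole marrow was grown for 6 days in 10 ng/ml M-CSF, the growth factor that drives marrow cells to macrophages, then replated, rested for 24 h and given vehicle for 24 h. For reference, 3 further groups of the same set are given: WT with vehicle, and both knockouts given 200 mg/dL low-density lipoprotein (LDL) for the same time. Jak2VF cells (Jak2V617F/WT;Vav-Cre) with vehicle appear in 1 plot. No sort of the cultures is described, and whether a group's 3 libraries are 3 mice is not stated, so p-values measure the spread between libraries, which may be technical.

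Dnmt3a and Tet2 act on the same DNA mark from opposite sides. Dnmt3a is a DNA methyltransferase that places new methyl groups on cytosine, mostly at CG pairs, whereas Tet2 oxidises methylcytosine and so starts its removal. Loss-of-function mutations of both genes are the commonest drivers of clonal hematopoiesis. In that condition a share of the blood cells of older people comes from 1 mutated stem cell. Setting the knockouts directly against each other shows where their macrophages differ, which a comparison of each with WT does not test.

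The 6 libraries held 24105237 to 42472328 counts. The 3 Dnmt3aKO libraries (39757748 to 42472328) were all deeper than the 3 Tet2KO libraries (24105237 to 37503046), so levels are given as CPM, counts relative to the library total after TMM scaling. Macrophage genes were high in all 6: Csf1r, the M-CSF receptor, ranged from 2360 to 2970 CPM and Adgre1 (F4/80) from 1060 to 1250 CPM. Xist did not exceed 0.315 CPM and the Y-linked Ddx3y was present in every library. Dnmt3a (chr12:3806007-3914443, mm10) stood at 63.1, 68.0 and 60.7 CPM in Tet2KO, 36.6, 32.6 and 32.7 in Dnmt3aKO and 54.6, 65.9 and 71.2 in WT. All 3 Dnmt3aKO libraries lay under those of both other groups, and the log2 fold change of Tet2KO over Dnmt3aKO was 0.91 ± 0.15 (SE; edgeR adjusted p 2.3e-04). Tet2 (chr3:133463679-133545139) did not separate the groups, with 32.8, 38.6 and 32.9 CPM in Tet2KO against 35.6, 28.1 and 32.7 in Dnmt3aKO (0.11 ± 0.29, edgeR adjusted p 0.90). A count over a whole gene includes the exons left outside a floxed segment, and which exons were removed is not given in the sources used here, so the Tet2 level does not check that label.

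Macrophages of both knockouts differed at 1707 of 19444 genes tested, 8.78% (edgeR's quasi-likelihood test, Benjamini-Hochberg adjusted p under 0.05, here termed called). Of these, 794 (4.08%) were higher and 913 (4.7%) lower in Tet2KO. The difference was at least 2-fold for 310 higher and 331 lower genes and at least 8-fold for 28 and 66. The median log2 fold change of all genes tested was -0.0039, and 83.0% of them lay within 0.5 of 0. In 1700 of the 1707 the 3 and 3 libraries did not overlap, which held for 34.8% of all genes tested. A fit on these 6 libraries alone called 3443 genes (1674 higher, 1769 lower). Without scaling for depth, limma called 913, of which 21.6% were higher against 46.5% with scaling, and the median of all genes was -0.26 in place of -0.0039. Of 35 gene lists, 20 held fewer calls without scaling and 29 held more in the fit on these 6 libraries. List counts below are to be read beside the 8.78% called over all genes tested.

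**Figure D1:**
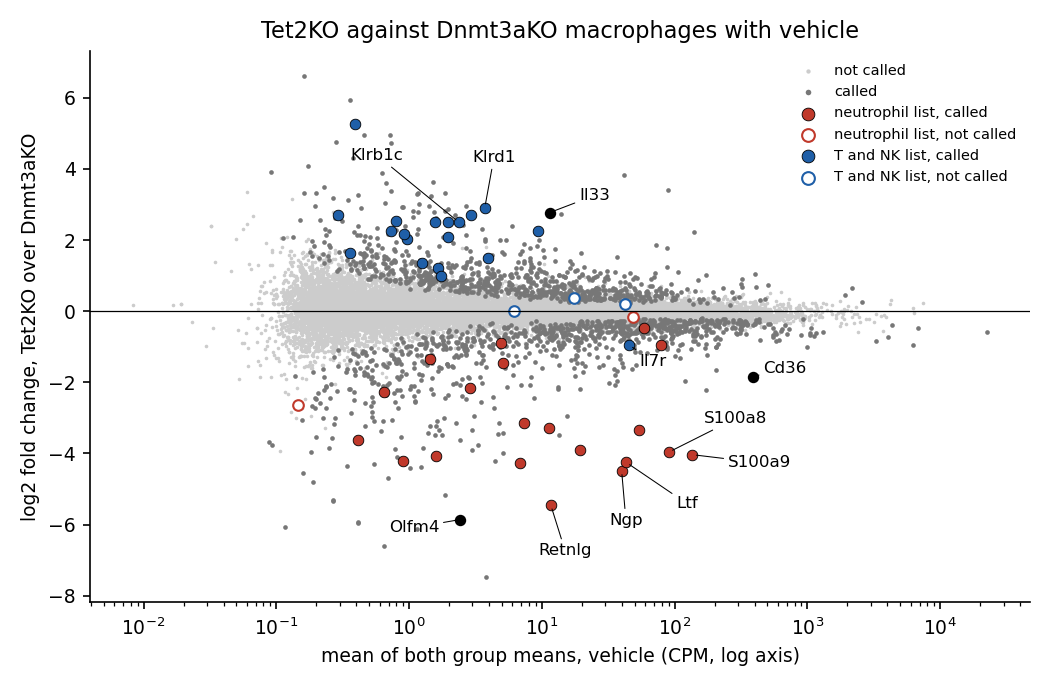
Each point is a gene, with its mean level in the 2 groups on the x axis (CPM, log axis) and the log2 fold change of Tet2KO over Dnmt3aKO with vehicle on the y axis. Filled red points (neutrophil list, called) lie below 0, from -0.47 for Csf3r to -5.45 for Retnlg, and 18 of the 19 filled blue points (T and NK list, called) lie above it.

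WT libraries gave each difference a reference point. Their mean is in no contrast of the knockouts, but all 24 libraries of the set share the estimate of spread behind each p-value. For 515 of the 794 genes higher in Tet2KO the WT mean lay between both knockouts, for 197 it lay above both and for 82 below both. For the 913 lower genes these counts were 594, 50 and 269. Over all genes tested the WT mean lay between the knockouts for 6566 of 19444. Genes called for a gap between the knockouts leave more room for WT between them. Against WT, 1064 genes (5.47%) were called in Tet2KO, of which 536 (2.76%) were higher, and 2157 (11.1%) in Dnmt3aKO, of which 1085 (5.58%) were higher. Both of these comparisons share their libraries with the main one, so their values are set beside it and support nothing.

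Of the gene lists examined, the neutrophil list had the lowest median. Its genes encode the granule proteins, alarmins and receptors of the granulocyte. Of 22 genes on the neutrophil list, 20 were lower in Tet2KO than in Dnmt3aKO and none was higher, with a median log2 fold change of -3.32. Their summed level was 188.2 to 229.2 CPM in Tet2KO, 327.6 to 402.4 in WT and 1002 to 1067 in Dnmt3aKO. The WT mean lay between the knockouts for 15 of the 22, against 6566 of all 19444 genes tested. In bulk libraries fewer cells of a type and less RNA per cell cannot be told apart, here and for every marker list below. Ly6g, the defining surface marker of mature neutrophils, was close to 0 in both groups (at most 0.103 CPM in Tet2KO and 0.227 to 0.291 in Dnmt3aKO) and was not called (edgeR adjusted p 0.066), nor was Mmp9 (0.58).

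Windows of 250 bases upstream of the start site are shown for 5 of these genes, chosen from the genes with large differences because each holds a short motif of a factor of granulocyte development. They come from RefSeq on GRCm38.p6, are read 5′ to 3′ on the gene's strand, and have matches on either strand in capitals: TTGCNNAA, a core bound by C/EBP factors, or GAGGAAGT, a core bound by PU.1. Retnlg lies at chr16:48872358-48872607 (plus strand), S100a9 at chr3:90695722-90695971 (minus), Ngp at chr9:110419558-110419807 (plus), Ltf at chr9:111019042-111019291 (plus) and S100a8 at chr3:90668821-90669070 (plus). The capitals mark C/EBP cores except in S100a8, where they mark PU.1. The windows hold 2 to 4 CG pairs each.
Retnlg: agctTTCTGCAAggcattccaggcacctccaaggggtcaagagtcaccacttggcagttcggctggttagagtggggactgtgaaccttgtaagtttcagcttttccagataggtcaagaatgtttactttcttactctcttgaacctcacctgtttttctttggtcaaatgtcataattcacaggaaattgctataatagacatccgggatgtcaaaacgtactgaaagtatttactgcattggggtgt
S100a9: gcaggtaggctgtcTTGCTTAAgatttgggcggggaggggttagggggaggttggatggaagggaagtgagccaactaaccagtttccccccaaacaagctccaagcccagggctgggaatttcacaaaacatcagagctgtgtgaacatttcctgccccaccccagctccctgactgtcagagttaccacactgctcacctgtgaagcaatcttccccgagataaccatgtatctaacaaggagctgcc
Ngp: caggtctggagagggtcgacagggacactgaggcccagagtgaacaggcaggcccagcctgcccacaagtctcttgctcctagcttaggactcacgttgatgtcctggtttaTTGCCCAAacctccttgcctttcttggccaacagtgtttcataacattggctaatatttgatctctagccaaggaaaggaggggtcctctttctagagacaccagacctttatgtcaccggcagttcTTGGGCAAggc
Ltf: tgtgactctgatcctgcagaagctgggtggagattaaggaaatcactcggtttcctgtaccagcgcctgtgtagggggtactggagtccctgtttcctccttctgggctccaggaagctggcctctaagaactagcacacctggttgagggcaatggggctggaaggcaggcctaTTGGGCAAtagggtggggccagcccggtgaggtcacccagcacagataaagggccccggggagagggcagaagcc
S100a8: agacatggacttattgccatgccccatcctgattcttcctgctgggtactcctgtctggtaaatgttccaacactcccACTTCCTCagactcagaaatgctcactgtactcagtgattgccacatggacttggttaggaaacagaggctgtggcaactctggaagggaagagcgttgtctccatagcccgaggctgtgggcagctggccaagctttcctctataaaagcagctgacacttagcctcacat

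Among 19 genes of the neutrophil list with a RefSeq window (250 bases before to 50 after the start), 8 held the C/EBP core (42.1%) and 7 the PU.1 core (36.8%). Over 12068 tested genes with a window the shares were 8.82% and 3.17%. The C/EBP core was also in 3 of 15 windows of the T and NK list, none of which held the PU.1 core. Among called genes, 12.2% of those at least 2-fold higher held the C/EBP core, against 14.6% of those at least 2-fold lower. The C/EBP core was therefore not confined to genes that fell. The PU.1 core was in 3.05% of the called genes at least 2-fold higher and 6.57% of those at least 2-fold lower. Cores of T-box (AGGTGTGA) and RUNX factors (TGTGGTTT) were in 1 and 2 of the 15 T and NK windows. A match describes letters in the window and not a bound site. Promoters of the genes that differed were also poor in CG pairs, the substrate of both enzymes. The median was 19 CG pairs over all 12068 windows, 11 for genes higher and 12 for genes lower in Tet2KO. It was 6 for the 197 genes at least 2-fold higher and 5.5 for the 198 at least 2-fold lower. The neutrophil list had a median of 3 and the T and NK list of 4, so low CG content was shared by both directions. No methylation was measured in these libraries.

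S100a9 and S100a8 encode the subunits of calprotectin, the most abundant protein of neutrophil cytoplasm, and neighbour each other on chromosome 3. S100a9 stood at 17.5, 14.5 and 14.7 CPM in Tet2KO, 251, 269 and 249 in Dnmt3aKO and 97.8, 96.6 and 68.3 in WT. The groups were far apart, with a 16.4-fold higher mean in Dnmt3aKO (log2 fold change -4.04 ± 0.20, edgeR adjusted p 1.3e-11). S100a8 followed at 12.4, 10.5 and 9.79 CPM against 179, 174 and 157, with WT at 61.9, 52.6 and 40.4 (-3.96 ± 0.23). Retnlg, which encodes a resistin-like secreted protein of mature neutrophils, was at 0.542, 0.595 and 0.438 CPM in Tet2KO and 23.0, 24.1 and 21.3 in Dnmt3aKO. This was the largest fold of the list, 43.8-fold (-5.45 ± 0.29, edgeR adjusted p 2.8e-11), and WT lay between at 4.83, 4.07 and 3.09.

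Proteins of the secondary granules, which form late in neutrophil maturation, showed the same order of groups. Ltf, which encodes the iron-binding lactoferrin, stood at 4.13, 4.88 and 3.97 CPM in Tet2KO, 81.2, 85.5 and 79.2 in Dnmt3aKO and 29.2, 32.4 and 23.3 in WT (-4.25 ± 0.14). Ngp, a cystatin-like granule protein, was at 4.39, 3.37 and 2.47 CPM against 75.4, 77.4 and 76.2, with WT at 27.7, 27.1 and 23.7 (-4.48 ± 0.19). Camp, the cathelicidin precursor, and Lcn2, which binds bacterial siderophores, differed by -4.27 ± 0.29 and -3.91 ± 0.25. For all 4, every Tet2KO library was below every WT library and every WT library below every Dnmt3aKO library. Chil3, a chitinase-like lectin that alternatively activated macrophages also make, was at 10.6, 9.99 and 8.42 CPM against 100, 101 and 95.5 (-3.35 ± 0.14).

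Enzymes of the primary granules, made early at the promyelocyte stage, differed less and had WT elsewhere. Elane, which encodes neutrophil elastase, was at 1.03, 1.15 and 0.979 CPM in Tet2KO, 6.08, 3.93 and 3.96 in Dnmt3aKO and 1.09, 1.02 and 0.970 in WT (-2.15 ± 0.23). Here Tet2KO and WT overlapped and Dnmt3aKO stood alone. Mpo (myeloperoxidase), Prtn3 (proteinase 3) and Ctsg (cathepsin G) differed by -0.89 ± 0.19, -1.45 ± 0.26 and -1.34 ± 0.21, with all 3 WT libraries under both knockouts for each. The receptor of neutrophil chemokines, Cxcr2, was at 1.42, 1.82 and 1.29 CPM against 13.8, 13.8 and 11.7, with WT at 2.70, 3.76 and 3.33 (-3.13 ± 0.19). Csf3r, the G-CSF receptor, which monocytes also carry, was at 53.7, 52.9 and 41.7 CPM against 67.1, 73.0 and 65.3, and WT lay under both at 28.2, 29.9 and 32.2 (-0.47 ± 0.10).

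Further genes named for the size of their fall included several known from granulocytes. Olfm4, a marker of a neutrophil subset, was at 0.0775, 0.0793 and 0.0773 CPM in Tet2KO against 4.02, 5.28 and 4.89 in Dnmt3aKO (-5.86 ± 0.46), with 8 counts in all in the 3 Tet2KO libraries. Cd177, a neutrophil surface protein, and Itgb2l, an integrin chain next of kin to Itgb2, fell by 4.22 and 4.08 on the log2 scale. Hdc, the enzyme that makes histamine, was at 0.852, 0.516 and 0.902 CPM against 8.52, 8.57 and 8.49 (-3.45 ± 0.22). Stfa2l1 belongs to a family of near-identical stefin genes whose reads may be shared, so its -3.62 ± 0.29 is uncertain. Not tied to neutrophils were Apoc1, an apolipoprotein beside Apoe, at 0.362, 0.635 and 0.180 CPM against 4.99, 6.15 and 5.57 (-3.90 ± 0.37), and the muscle gene Nrap (-4.0 ± 0.25). Apoc1 was near 0 in WT too (at most 0.382 CPM).

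**Figure D2:**
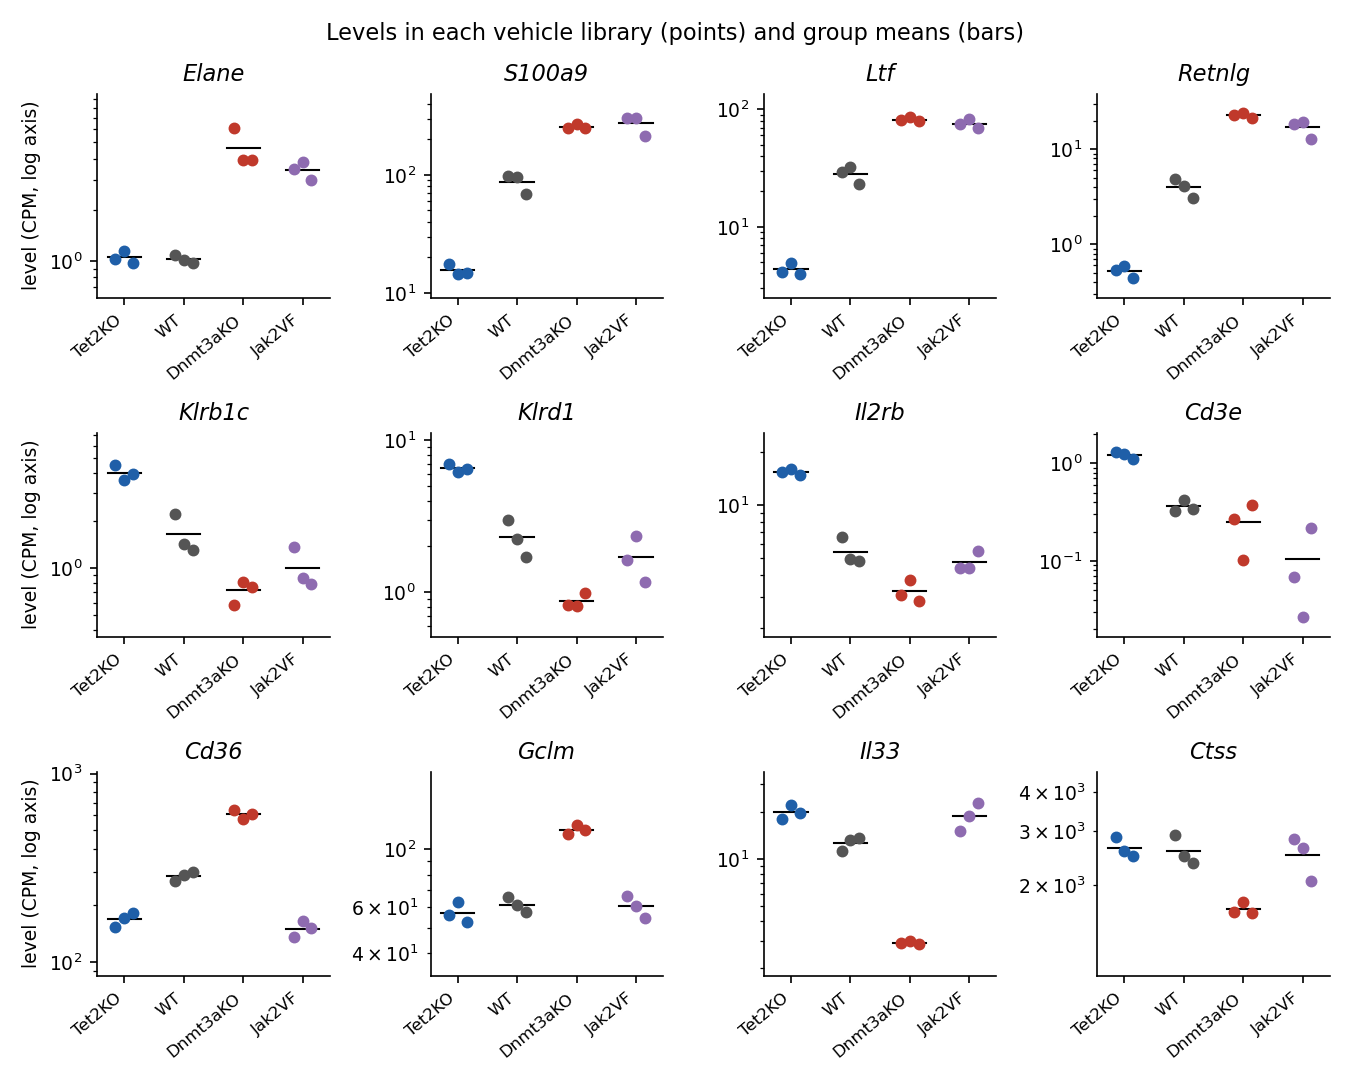
Levels of 12 genes in each vehicle library (points, CPM, log axis) with the group means (bars) for Tet2KO, WT, Dnmt3aKO and Jak2VF. The neutrophil genes of the first row were low in Tet2KO and high in Dnmt3aKO and Jak2VF, while the NK and T cell genes of the second row were highest in Tet2KO, as with Klrd1 at 6.19 to 7.0 CPM against 0.816 to 0.983 in Dnmt3aKO.

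Transcripts of NK and T cells, the cytotoxic and antigen-specific lymphocytes, differed in the other direction. Of 22 list genes, 18 were higher in Tet2KO, 1 was lower and 3 were not called, with a median log2 fold change of 2.13. The WT mean lay between the knockouts for 18 of the 22, against 6566 of all 19444 genes tested. Levels were low: apart from Il7r, Cd4, Thy1, Il2rb and Ccl5, no list gene exceeded 7.0 CPM in any of the 6 libraries. The list's summed level therefore moved little, 156.2 to 166.6 CPM in Tet2KO against 129.4 to 139.8 in Dnmt3aKO. Il7r, the interleukin 7 receptor, made up 30.7% of that sum and was the 1 gene that fell, at 33.4, 30.8 and 28.6 CPM against 59.9, 61.0 and 58.8 (-0.95 ± 0.12).

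Receptors of NK cells were among the members called. Klrb1c, which encodes NK1.1, stood at 4.55, 3.65 and 3.94 CPM in Tet2KO, 0.581, 0.816 and 0.756 in Dnmt3aKO and 2.21, 1.41 and 1.29 in WT. No libraries of the 3 groups overlapped, and the Tet2KO mean was 5.64-fold above the Dnmt3aKO mean (2.50 ± 0.29, edgeR adjusted p 3.2e-06). Klrd1 (CD94, the partner of NKG2 receptors) was at 7.0, 6.19 and 6.47 CPM against 0.823, 0.816 and 0.983 (2.90 ± 0.26). The activating receptors Klrk1 (NKG2D) and Ncr1 (NKp46) differed by 2.72 ± 0.20 and 2.52 ± 0.27, and the inhibitory Klrc1 (NKG2A), which is not on the list, by 3.31 ± 0.32. Over the whole killer-cell lectin-like receptor family, 16 of 21 entries tested were higher and 1 was lower. Its Klra members are near-identical copies whose reads may be split or shared, and 1 of the 2 entries named Klra3 was the lower one.

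Other cytotoxic and T cell genes followed. Il2rb, the interleukin 2 receptor chain that NK cells carry, was at 15.3, 16.1 and 14.8 CPM in Tet2KO, 3.10, 3.77 and 2.87 in Dnmt3aKO and 6.58, 4.92 and 4.80 in WT (2.25 ± 0.17). Gzmb, the protease of cytotoxic granules, was at 3.59, 2.02 and 2.32 CPM against 0.315, 0.510 and 0.580 (2.51 ± 0.32). Cd3e, a defining chain of the T cell receptor complex, was at 1.29, 1.23 and 1.11 CPM against 0.266, 0.102 and 0.378 (2.26 ± 0.37). Tbx21, which encodes the transcription factor T-bet, was at 1.27, 1.35 and 1.49 CPM against 0.169, 0.230 and 0.302 (2.54 ± 0.30). Outside the list, the genes named for their rise included the lymphocyte surface proteins Cd7 (3.24 ± 0.41), Cd96 (3.02 ± 0.29), Klrb1a (2.94 ± 0.30) and Klri2 (2.61 ± 0.40). Cd4 was at 44.3, 47.4 and 44 CPM against 35.6, 41.6 and 40.7 and was not called (edgeR adjusted p 0.17).

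Among the other large rises, Il33 had the highest level. It encodes an alarmin cytokine of the interleukin 1 family and stood at 18.1, 22.2 and 19.8 CPM in Tet2KO, 2.91, 2.98 and 2.87 in Dnmt3aKO and 11.3, 13.2 and 13.6 in WT (2.77 ± 0.15, edgeR adjusted p 2.8e-11). Its receptor gene Il1rl1 (ST2) was also higher, at 39.8, 47.8 and 34.8 CPM against 18.8, 21.7 and 21.2 (0.99 ± 0.14). Cd207, the Langerhans cell lectin langerin, was at 2.09, 2.22 and 2.04 CPM against 0.218, 0.153 and 0.252 (3.32 ± 0.27). Eps8l1, an actin regulator, was at 3.69, 4.12 and 3.74 CPM against 0.508, 0.561 and 0.680, with WT above both at 4.59, 5.09 and 5.09 (2.71 ± 0.15). Apol7e and Ifi208 differed by 2.87 ± 0.23 and 2.80 ± 0.35. Kit, the stem cell factor receptor, was at 7.98, 8.05 and 7.29 CPM against 2.35, 2.70 and 2.65, with WT at 3.50, 3.00 and 2.96 (1.6 ± 0.19).

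Genes of lipid uptake and storage included the scavenger receptor Cd36, which binds oxidised lipoprotein and fatty acids. Cd36 stood at 154, 171 and 181 CPM in Tet2KO, 641, 571 and 607 in Dnmt3aKO and 270, 291 and 299 in WT. The groups did not overlap and the Dnmt3aKO mean was 3.59-fold above the Tet2KO mean (-1.84 ± 0.10, edgeR adjusted p 2.8e-11). Of 29 genes on the lipid uptake, droplet and PPAR list, 14 were lower, 1 was higher and 14 were not called (median -0.48). Without the second Dnmt3aKO library 9 were called in place of 15. Lower members were the scavenger receptors Marco (-3.44 ± 0.45) and Msr1 (-0.72 ± 0.12), the fatty acid binding protein Fabp4, at 30.2, 36.0 and 32.0 CPM against 60.0, 63.4 and 59.2 (-0.90 ± 0.13), and the droplet coat protein Plin2, at 700, 720 and 669 CPM against 1110, 1150 and 1040 (-0.66 ± 0.12). Cd5l, a secreted scavenger-receptor protein, was the 1 higher member, at 88.8, 83.8 and 101 CPM against 52.1, 45.8 and 44.1 (0.95 ± 0.19). Genes of sterol supply and export were called for 1 of 25 members of the cholesterol biosynthesis list and 1 of 17 LXR target and efflux genes (Apoc1). The LXR count was 3 without Tet2KO replicate 1 and 7 in the fit on these 6 libraries alone, and it was 8 with the replicate number of the titles or of the descriptions as a block.

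Antioxidant genes driven by the factor NRF2 were lower as a group, with 11 of 17 lower, none higher and a median of -0.52. Gclm, a subunit of the enzyme that makes the glutathione precursor, was at 56.2, 63.0 and 52.5 CPM in Tet2KO and 114, 124 and 118 in Dnmt3aKO (-1.05 ± 0.09), and WT overlapped Tet2KO at 65.5, 61.1 and 57.5. Hmox1, which degrades heme, was at 639, 648 and 686 CPM against 1420, 1220 and 1300 (-1.0 ± 0.13), with WT at 732, 688 and 536. The cystine carrier Slc7a11 and glutathione reductase Gsr fell by 1.04 and 0.63 on the log2 scale. Nqo1, a classical NRF2 target, was not called (edgeR adjusted p 0.95).

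Lysosomal genes were lower for 10 of 24 members and higher for 1 (median -0.30), and 7 of the 24 were called without either the first Dnmt3aKO or the second Tet2KO library and 5 without depth scaling. The fit on these 6 libraries alone called 17. Ctsl, the protease cathepsin L, was at 2450, 2230 and 2370 CPM in Tet2KO against 4720, 4020 and 3940 in Dnmt3aKO (-0.85 ± 0.11), with WT between at 3380, 3100 and 2790. Atp6v0d2, a proton pump subunit, was at 70.3, 80.3 and 84.6 CPM against 163, 141 and 143 (-0.93 ± 0.13). Cathepsin S, which trims the invariant chain for antigen presentation, went the other way: Ctss was at 2870, 2590 and 2480 CPM against 1640, 1760 and 1630, with WT at 2920, 2490 and 2360 (0.66 ± 0.15). Without depth scaling Ctss was not called (limma adjusted p 0.38).

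**Figure D3:**
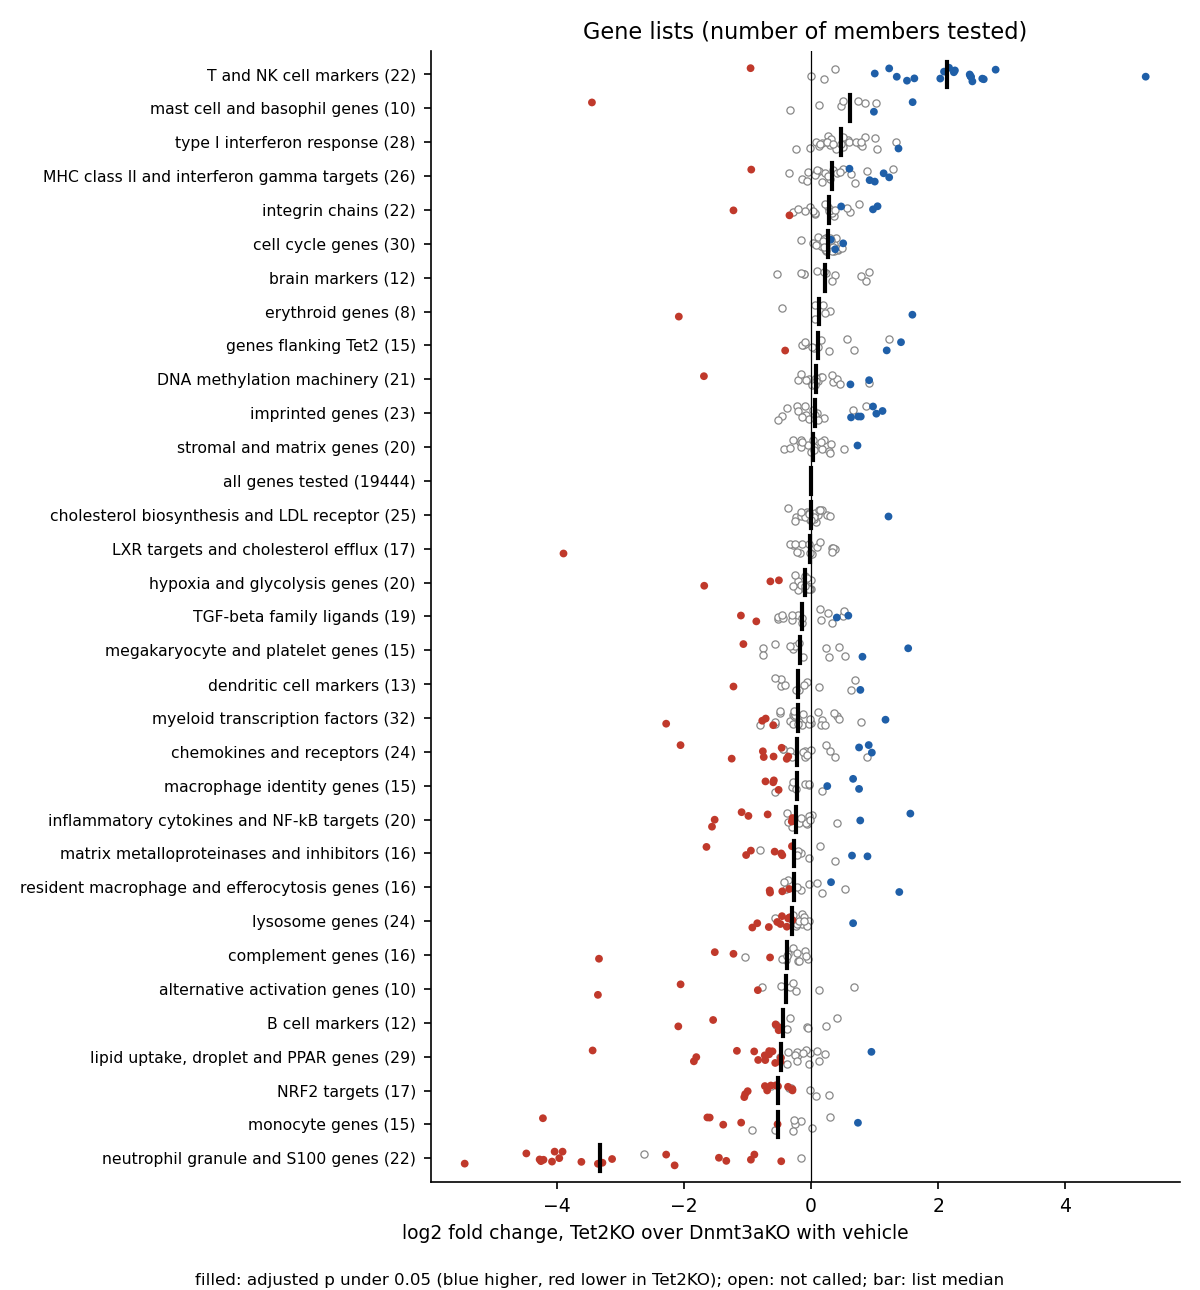
Each row is a gene list with at least 8 members tested (number in brackets), points are members by log2 fold change of Tet2KO over Dnmt3aKO with vehicle, filled where called, and bars are list medians. The T and NK list (median 2.13) and the neutrophil list (-3.32) lie at the ends, and the median of all 19444 genes is -0.0039.

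Macrophage identity genes did not move together. Of 15, 3 were higher and 4 lower, with a median of -0.23, and 3 were called without depth scaling. The fit on these 6 libraries alone called 11. Csf1r was slightly higher, at 2970, 2810 and 2710 CPM against 2370, 2380 and 2360 (0.25 ± 0.07), and the fractalkine receptor Cx3cr1 was at 112, 126 and 117 CPM against 72.1, 70.0 and 68.3 (0.75 ± 0.08). The lysozyme gene Lyz2 was at 18400, 17500 and 18200 CPM against 27800, 27200 and 26200 (-0.59 ± 0.14), and Cd68, a lysosomal glycoprotein, fell by 0.51 on the log2 scale. Adgre1, Itgam, Mertk and Spi1 were not called. Monocyte genes were lower for 6 of 15 and higher for 1 (median -0.53). Ly6c2, the classical monocyte marker, was at 10.5, 9.04 and 7.78 CPM against 22.4, 27.0 and 21.9, with WT under both at 6.33, 5.43 and 3.96 (-1.38 ± 0.19). Spn (CD43), which marks patrolling monocytes, was higher (0.74 ± 0.09). Cd177, in that list too, is mainly a neutrophil protein. Depth scaling mattered for the smaller rises: without it, Cx3cr1 and Spn were not called (limma adjusted p 0.19 and 0.22).

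Inflammatory mediators gave calls in both directions. Of 20 cytokine and NF-kB target genes, 7 were lower and 2 higher (Il10 and Il12b), with a median of -0.24, and 5 of the 20 were called without depth scaling. Nos2, the inducible nitric oxide synthase, was at 50.6, 51.0 and 38.5 CPM in Tet2KO, 101, 96.7 and 101 in Dnmt3aKO and 23.2, 31.8 and 17.7 in WT (-1.09 ± 0.16), so both knockouts were above WT. Nfkbia, the NF-kB inhibitor and target, was at 66.0, 60.8 and 66.7 CPM against 94.1, 112 and 105 (-0.68 ± 0.10). Il6 was at 8.42, 7.89 and 4.41 CPM against 12.6, 14.3 and 14.0 (-0.99 ± 0.20), and Saa3, an acute-phase protein, fell by 1.56. Il1b, at 102, 99.8 and 82.2 CPM against 94.0, 154 and 122, and Tnf, at 7.0, 3.93 and 6.59 CPM against 5.91, 6.02 and 6.73, were not called (edgeR adjusted p 0.53 and 0.89).

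Chemokine genes also differed. Of 24 tested, 8 were lower, among them 7 ligands and the receptor Ccr1, and the 3 higher ones were all receptors (7 called without depth scaling). With the replicate number of the titles as a block, 17 were called. Ccl22, which draws regulatory T cells, was at 0.827, 0.833 and 0.824 CPM against 3.70, 3.62 and 3.02 (-2.06 ± 0.23), and the monocyte chemoattractant Ccl2 was at 74.5, 74.5 and 64.1 CPM against 110, 128 and 122 (-0.76 ± 0.14). Ccr3, a receptor of eotaxins, was at 14.8, 16.6 and 15.6 CPM against 8.47, 7.60 and 8.14 (0.95 ± 0.08). The Ccr3 libraries of both knockouts did not overlap.

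Matrix metalloproteinases and their inhibitors, counted as 1 list, were lower for 7 of 16 genes and higher for 2 (median -0.26), with 5 called without depth scaling. Mmp13, a collagenase, was at 97.9, 115 and 84.6 CPM in Tet2KO, 270, 359 and 302 in Dnmt3aKO and 101, 99.6 and 84.9 in WT (-1.65 ± 0.18). Mmp12, the macrophage elastase, was at 121, 106 and 107 CPM against 254, 207 and 219 (-1.02 ± 0.13), and Mmp8, the neutrophil collagenase, at 64.9, 55.7 and 40.1 against 102, 106 and 102 (-0.95 ± 0.12). Of 16 complement genes 4 were lower. C2, a protease of the classical pathway, was at 0.491, 0.516 and 0.592 CPM against 5.30, 5.61 and 5.39, with WT at 0.328, 0.283 and 0.393 (-3.34 ± 0.20). Of 20 hypoxia and glycolysis genes 3 were lower, led by the carbonic anhydrase Car9 at 14.8, 17.5 and 20.2 CPM against 60.8, 53.1 and 54.6 (-1.68 ± 0.16). In C2, Mmp13 and Car9 the Dnmt3aKO libraries stood apart from both other groups.

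Antigen presentation genes showed a modest difference. Of 26 class II and interferon gamma targets, 5 were higher and 1, Cd40, was lower (median 0.32). Ciita, the master regulator of class II genes, was at 4.24, 3.93 and 2.86 CPM against 1.69, 1.73 and 1.26, with WT at 1.28, 1.33 and 1.78 (1.23 ± 0.24). H2-Aa, a class II chain, was at 26.7, 26.1 and 20.1 CPM against 10.7, 11.7 and 10.7 (1.14 ± 0.25), whereas its partner H2-Ab1, at 37.7, 33.5 and 42.6 CPM against 38.7, 46.8 and 40.9, was not called. None of Ciita, H2-Aa and H2-DMa was called without depth scaling (limma adjusted p 0.072, 0.11 and 0.13), and the count for the list was then 1 of 26. The count was 15 in the fit on these 6 libraries alone and 14 with the replicate number of the titles as a block. Type I interferon response genes had a median of 0.47 with 1 of 28 called (Oasl1), 0 without depth scaling or without any of the 3 Dnmt3aKO libraries or Tet2KO replicate 1 or 3, but 8 in a fit on the vehicle libraries alone and 15 on these 6 alone. The summed level of that list varied within Tet2KO from 652.0 to 970.4 CPM, against 577.2 to 604.6 in Dnmt3aKO.

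Markers of other marrow cells gave mixed counts. Of 12 B cell genes 5 were lower, among them the immunoglobulin genes Jchain, at 2.53, 3.97 and 2.89 CPM against 13, 12.9 and 13.6 (-2.09 ± 0.27), and Igkc, at 10.8, 11.1 and 10.4 against 32.3, 29.9 and 31.9 (-1.54 ± 0.31). The list's summed level was 169.2 to 181.5 CPM in Tet2KO and 253.6 to 273.4 in Dnmt3aKO. Of 15 platelet genes 2 were higher and 1 lower. The higher ones were Ppbp, a platelet chemokine, at 60.7, 50.8 and 51.2 CPM against 19.6, 17.2 and 19.6 (1.53 ± 0.14), and Vwf (0.81 ± 0.12). Of 20 stromal genes 1 was called (Postn, higher), of 13 dendritic cell genes 2, and of 8 erythroid genes 2, each list of 2 with 1 in each direction. Without depth scaling the stromal count was 0 and the dendritic count 1, and the dendritic count was also 1 without Dnmt3aKO replicate 3 or Tet2KO replicate 3. The fit on these 6 libraries alone called 6 stromal and 4 dendritic genes. No brain marker of 12 was called by edgeR, nor by DESeq2 or limma-voom, and 1 was in the fit on these 6 libraries alone.

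Among genes of the DNA methylation machinery, 3 of 21 were called (14.3%, against 8.78% of all genes tested), and 1 of 21 without depth scaling. The count was 9 in the fit on these 6 libraries alone. It was 8 and 7 with the replicate number of the titles and of the descriptions as a block. Beside Dnmt3a itself, Tdg, the glycosylase that cuts out Tet-oxidised cytosines, was higher at 45.4, 44.3 and 40.5 CPM against 28.1, 28 and 28.7, with WT at 42.8, 43.7 and 44.7 (0.62 ± 0.09). Dnmt3l, the catalytically inactive cofactor of Dnmt3a, was lower at 0.852, 0.595 and 0.876 CPM against 2.40, 2.63 and 2.62 (-1.69 ± 0.25). Tet1, Tet3, Dnmt1, Dnmt3b and Uhrf1 were not called. On the list of imprinted genes, whose parental alleles differ in methylation, 6 of 23 were higher and none was lower (median 0.067). That count depends on which genes are listed. Dio3 and Dio3os, near the list member Meg3 on chromosome 12, are not among the 23, and both were called lower. For Dio3 the log2 fold change was -0.749 (edgeR adjusted p 0.017), whereas Meg3, Rian and Mirg in that region were called higher. H19 was at 175, 244 and 273 CPM in Tet2KO, 115, 121 and 104 in Dnmt3aKO and 277, 270 and 239 in WT (1.03 ± 0.17), and Peg3 at 14.4, 14.3 and 12.1 CPM against 6.22, 6.30 and 6.20 (1.12 ± 0.21). Without the second Dnmt3aKO or the second Tet2KO library 3 of these 23 were called. H19 was not called without depth scaling (limma adjusted p 0.071), and the count for the list was then 1 of 23.

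Transcription factors and secreted factors of macrophages added a few single genes. Of 32 myeloid transcription factors 1 was higher and 4 were lower (15.6% called, against 8.78% of all genes tested). The fit on these 6 libraries alone called 14 of them. With the replicate number of the titles and of the descriptions as a block, 15 and 11 were called. Runx3, which acts in cytotoxic lymphocytes and in dendritic and macrophage subsets, was at 26.3, 24.9 and 24.9 CPM in Tet2KO, 11.5, 11.7 and 10.7 in Dnmt3aKO and 16.6, 18.0 and 16.9 in WT (1.17 ± 0.07, edgeR adjusted p 3.9e-10). Cebpe, the factor of secondary granule genes, was at 0.413, 0.0793 and 0.129 CPM against 0.823, 1.28 and 1.16 (-2.28 ± 0.44), at few counts. Gdf3, a member of the TGF-beta superfamily, was lower in Tet2KO at 12.4, 12.7 and 13.3 CPM against 23.6, 21.2 and 24.9 (-0.86 ± 0.13), yet both knockouts were far above WT at 1.04, 1.02 and 1.39. Of 30 cell cycle genes 3 were higher and none lower (median 0.26), 10.0% called against 8.78% of all genes tested. The cell cycle count was 1 when Dnmt3aKO replicate 2 or 3 or Tet2KO replicate 1 or 3 was left out. It was 0 without depth scaling and 19 in the fit on these 6 alone.

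The same genotype contrast could be read in 6 other libraries, those given LDL, which share none with the vehicle comparison. One of them, Tet2KO with LDL replicate 3, held the astrocyte transcript Gfap at 4.26 CPM, as did a WT library with LDL (2.72 CPM), against at most 0.714 CPM in the other libraries of the set. With LDL, 2203 genes (11.3%) were called, 1223 higher (6.29%) and 980 lower (5.04%), and 1618 when both libraries with Gfap were left out. The balance of directions turned with them left out (787 higher, 831 lower) and in the fit on the LDL groups alone (452 higher, 523 lower, 975 in all), and with the replicate number of the titles (343 and 443) or of the descriptions (172 and 255) as a block. Of the 1707 genes called with vehicle, 1669 (97.8%) had the same sign with LDL, against 57.8% of all genes tested, and 1125 were called in the same direction (65.9% of the vehicle calls and 51.1% of the LDL calls), 538 higher and 587 lower. A single gene was called in opposite directions. Pearson's r of both log2 fold changes was 0.923 across the genes called with vehicle and 0.627 across all genes, given as a description since genes are not independent replicates. The genes called with vehicle were chosen on the vehicle libraries. Both contrasts came from the same fit with a shared estimate of the spread, so their calls are not independent. Whether vehicle and LDL libraries came from the same mice is not stated.

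Lead genes kept their order with LDL. S100a9 was at 16.4, 13.3 and 11.0 CPM in Tet2KO and 172, 188 and 170 in Dnmt3aKO (-3.70 ± 0.20), and Retnlg at 0.405, 0.261 and 0.152 against 11.0, 15 and 12.4 (-5.49 ± 0.32). Cd36 rose with LDL in both knockouts to 370, 404 and 349 CPM and 1390, 1440 and 1510, which left the contrast at -1.95 ± 0.10. Klrb1c was at 4.31, 3.60 and 2.62 CPM against 0.376, 0.786 and 0.727 (2.44 ± 0.30). By list, 17 of 22 neutrophil genes were lower (median -2.46) and 17 of 22 T and NK genes higher (median 1.75), with 13 of 17 NRF2 targets lower. The cell cycle list differed in count, with 21 of 30 higher with LDL against 3 with vehicle, but none of its genes passed the test of the difference between treatments, for which edgeR called only Ppfibp2 and Ptges (2 of 19444, 0.0103%; 1439 had an unadjusted p under 0.05 and DESeq2 called 63).

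**Figure D4:**
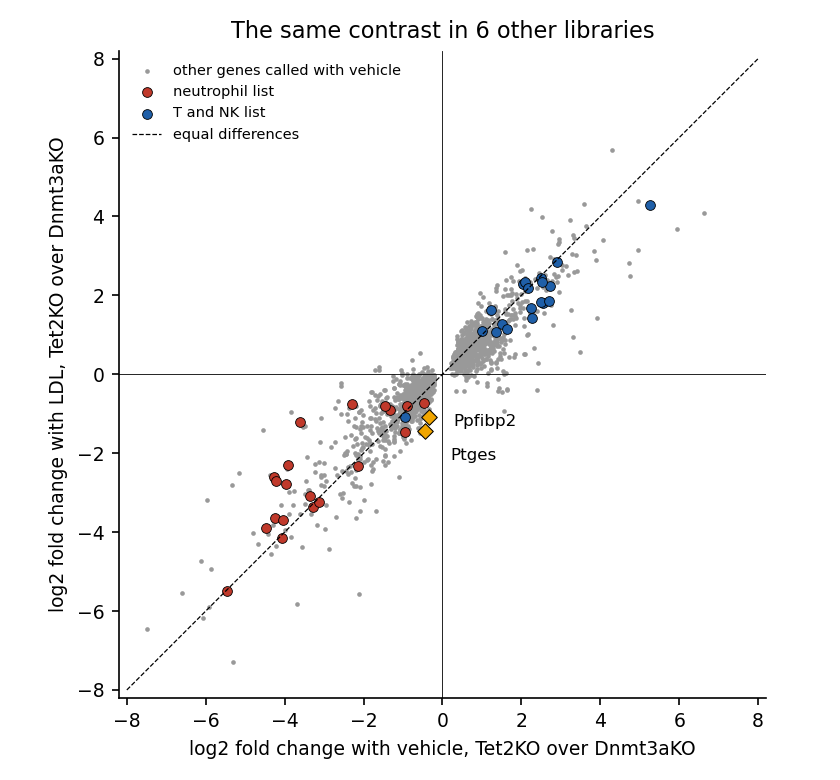
Log2 fold changes of Tet2KO over Dnmt3aKO for the 1707 genes called with vehicle, with vehicle on the x axis and with LDL, from 6 other libraries, on the y axis. The neutrophil and T and NK list genes lie in the same quadrant under both treatments, and Ppfibp2 and Ptges (diamonds) lie below the dashed line of equal differences.

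Genes around a targeted locus can be inherited with the targeted allele, which was not tested here, and were counted separately. The windows were chosen with the data in view. Within 10 Mb of Tet2, with Tet2 left out, 23 of 107 genes tested were called (21.5%), 11 higher and 12 lower, against 12.6% on all of chromosome 3. Within 10 Mb of Dnmt3a, which lies near the start of chromosome 12, it was 2 of 69 (2.9%). Near Tet2, Npnt, which encodes the matrix protein nephronectin, was at 17.8, 19.8 and 17.3 CPM in Tet2KO, 7.0, 6.66 and 6.90 in Dnmt3aKO and 9.01, 11.2 and 12 in WT (1.41 ± 0.14; chr3:132881745-132950291). Slc9b2, a sodium-proton exchanger, was at 11.5, 13.5 and 14.4 CPM against 6.92, 4.95 and 5.42 (1.19 ± 0.13; chr3:135307700-135345387), and Cisd2, an iron-sulfur protein, fell by 0.41. Inherited neighbouring sequence and the loss of the gene itself cannot be told apart here. Chromosome 6, which carries the Klr family, had 12.5% called, with the Klr genes counted in. The 18 T and NK genes that rose comprise 5 on chromosome 6 and 13 elsewhere. Among the genes that fell, S100a9, S100a8 and Chil3 lie on the chromosome of Tet2, at -42.8, -42.8 and -27.4 Mb from that gene. Whether inherited sequence bears on the Klr genes, S100a9, S100a8 or Chil3 was not tested.

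**Figure D5:**
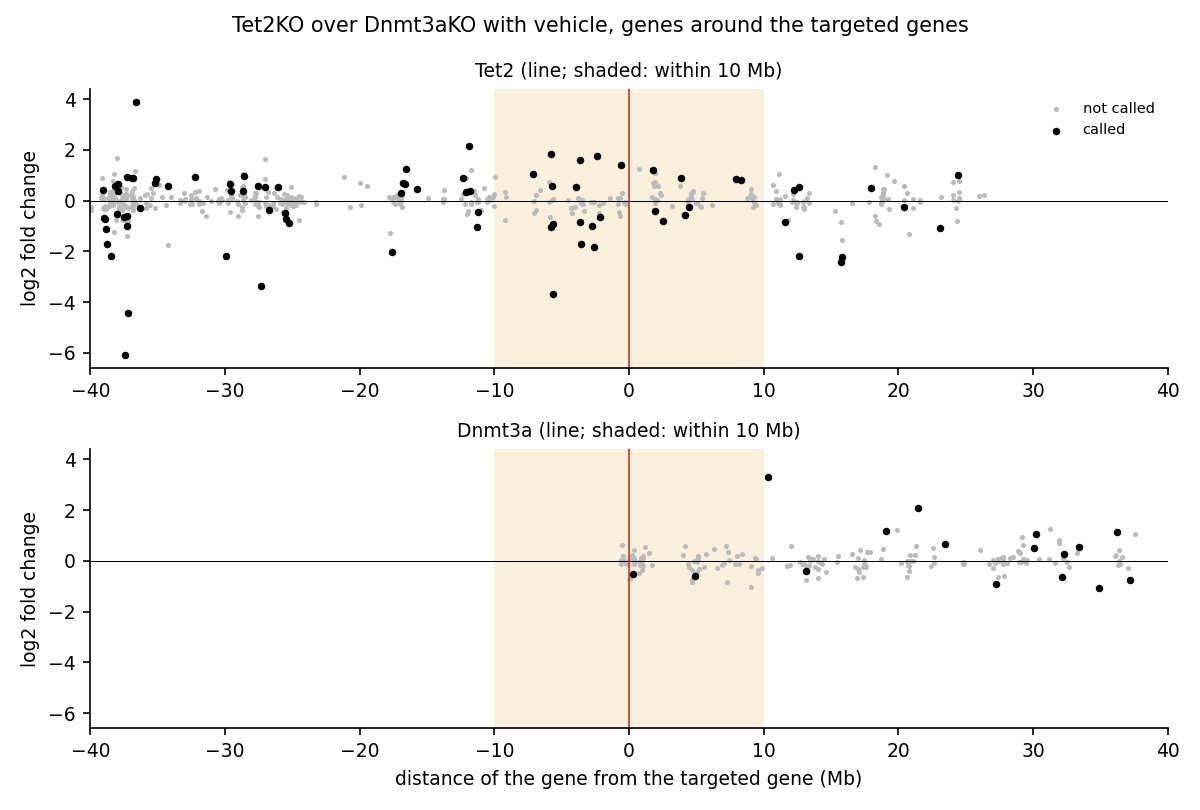
Log2 fold change of Tet2KO over Dnmt3aKO with vehicle (y axis) for genes on the chromosomes of Tet2 (upper) and Dnmt3a (lower) by their distance from the targeted gene (x axis, Mb), which itself is left out, with called genes in black. Called genes in both directions fill the shaded 10 Mb around Tet2 (23 of 107), and 2 of 69 lie in that around Dnmt3a.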

How the data were processed

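RNA was depleted of ribosomal RNA and libraries were made with poly-A selection, per the labels' protocols. The deposited main table gives read counts per gene for 24 libraries. The genome build was mm10, per the submitters' processing notes. Aligner, counter and use of strand: not given in the sources used here. The table is named as normalized, but its values are whole numbers whose totals differ between libraries (24105237 to 43904761, 1.82-fold), and they were tested as counts. A second deposited table, of an earlier batch, was not used here. Of 52550 genes, 24183 were named in the table and 52457 after matching IDs to GENCODE M21.

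A gene was tested if 3 or more libraries held 10 or more counts (19444 genes), and these were fitted with edgeR 4.0.16 (R 4.3.3) after TMM scaling, with 1 mean for each of 8 groups, by the quasi-likelihood test, two-sided. Benjamini-Hochberg adjustment ran over all genes tested, and genes were called under 0.05. The common biological coefficient of variation was 0.137. Errors are standard errors of log2 fold changes. Alternatives used limma 3.58.1 (on log2(value + 1) without scaling, and voom), DESeq2 1.42.0, other filters, other sets of libraries, blocks by number in the labels, and each library left out in turn. Named genes were the targeted genes, 4 given markers (S100a9, Retnlg, Cd36, Klrb1c), the 14 largest rises and 14 largest falls at 2 CPM or more without overlap, and up to 4 genes per list with at least 3 calls; further list members are given to show roles. The comparison, gene lists and motifs were chosen with earlier results of these data known. Values of a few list members are not reported here. Promoter windows are RefSeq's on GRCm38.p6, 1 per gene.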

Additional observations from a re-analysis of the deposited data

Results flagged for a closer look

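Of all genes tested, 2 differed between treatments in how far the knockouts lay apart, by the interaction term of the edgeR fit. Ppfibp2, which encodes a liprin scaffold protein, stood with vehicle at 23.4, 23.9 and 23.5 CPM in Tet2KO and 29.2, 30.8 and 30.5 in Dnmt3aKO, and with LDL at 25.6, 28.1 and 27.8 against 56.1, 57.8 and 59.5. Its log2 fold change was -0.35 with vehicle and -1.09 with LDL, a difference of -0.738 ± 0.103 (edgeR adjusted p 0.0050). Ptges, the inducible synthase of prostaglandin E, was at 31.4, 33.9 and 32.6 CPM against 46.2, 45.8 and 40.7 with vehicle and at 66.7, 60.0 and 63.1 against 173, 165 and 174 with LDL. Its log2 fold change went from -0.44 to -1.43, a difference of -0.992 ± 0.137 (edgeR adjusted p 0.0050). In both genes the Dnmt3aKO libraries rose with LDL to levels that no Tet2KO library reached.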

How the results depend on the processing

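The 1707 calls with vehicle became 913 with limma without scaling, 3443 in the fit on these 6 libraries alone, 3245 and 2515 with the title or description number as a replicate block, and 1228 to 1296 with 1 library left out. The 2203 calls with LDL became 840 without scaling, 975 on the groups compared, 786 and 427 with the title and description blocks, and 1500 to 3034 with 1 library left out. The 2 calls for the difference between treatments became 0 without scaling, 63 with DESeq2, 42 with any count allowed, 8 with at least 50 counts, 0 and 0 with the blocks, and 2 to 13 with 1 library left out (13 without Tet2KO LDL replicate 2, 5 without Tet2KO LDL replicate 1, 4 without Tet2KO ctl replicate 3). Tet2KO against WT went from 1064 to 240 without scaling and 611 with either block, and to 644 to 833 with 1 library left out. Dnmt3aKO against WT went from 2157 to 822 without scaling, of which 73.5% were higher against 50.3%, and to 1561 to 1839 with 1 library left out. The 112 named genes were mostly picked for large folds or small adjusted p in the main fit, where 111 were called. Refits of the same counts were therefore likely to keep them, and their stability does not speak for the other calls. For these genes, 1836 of 1902 alternatives kept direction and side of the threshold, 66 no longer passed (24 without scaling, 36 with 1 library left out) and none reversed. The 36 fell on 9 genes, which no longer passed in 1 or more of the fits with 1 library left out: C1qa, Aurkb, Mcm5, Inhbb, Gdf15, Gp9, Igf1, Meg3 and Arg1. Deviations of same-numbered libraries correlated at 0.046, -0.14 and 0.02 by title, so the title numbers were not taken to pair them. By description they correlated at 0.145 and 0.187, and 2 pairs are too few to decide. The cause was not tested. Depth limits genes under about 1 CPM, such as Gzma, Cebpe and Ly6g.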

Other observations

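A gene outside the naming rule, BC018473 on chromosome 11, was chosen after its values were seen. It is annotated as an antisense transcript, so without stranded counting its reads cannot be told from those of an overlapping gene. It had 307, 282 and 321 counts in Dnmt3aKO with vehicle and 178, 274 and 267 with LDL, against 0, 0 and 4 in Tet2KO with vehicle and 1 in each WT library with vehicle. All other libraries of the set held at most 5 counts. In CPM the means with vehicle were 7.57 in Dnmt3aKO and 0.034 in Tet2KO.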
